A study of Mus musculus with 20 samples.

Results

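The neutrophil genes followed here are 8 transcripts measured in mouse lung. They were taken by symbol from the count tables, and all 8 were present among 24062 listed genes. Of these, 5 mark mature neutrophils (S100a8, S100a9, Cxcr2, Csf3r and Retnlg) and 3 encode proteins packed into granules during maturation in the bone marrow (Ngp, Camp and Ltf). All 8 passed the filter on low counts that left 15766 genes for testing. The study compared lungs of C57/129 mice that were wild type for Arg2, the gene of the mitochondrial arginase, with lungs of Arg2-/- mice, each after 28 days in room air (21% oxygen) or in hypoxia (10% oxygen). The mice were 8 to 10 weeks old, both sexes are named in the labels, and lungs were rinsed in buffered saline and frozen whole. The 20 libraries were 16 samples, 4 in each of the groups wild type in room air, wild type in hypoxia, Arg2-/- in room air and Arg2-/- in hypoxia. The labels name no deletion restricted to a cell type. Neither the position of the deletion nor a cell count of neutrophils is given in the sources used here.

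Neutrophils leave the bone marrow as mature cells and many of them reside in the capillaries of the lung. Their granule proteins are made in order during maturation: primary granule proteins such as myeloperoxidase first, then secondary granule proteins such as lactoferrin, cathelicidin and neutrophilic granule protein, while S100A8, S100A9, the chemokine receptor CXCR2 and the receptor for granulocyte colony-stimulating factor are abundant in mature cells. Transcripts of secondary granule proteins are therefore known as marks of precursors rather than of circulating neutrophils. In bulk lung RNA, fewer neutrophils and less RNA per neutrophil cannot be told apart.

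The pair S100a8 and S100a9 and the pair Ngp and Camp are shown first at the level of sequence, because each pair moved together across the samples. S100a8 lies on chromosome 3 at 90668978 to 90670035 (plus strand) and S100a9 at 90692632 to 90695721 (minus strand), with 22.6 kb between them on GRCm38 (GENCODE vM21). Ngp lies on chromosome 9 at 110419747 to 110423012 (plus strand) and Camp at 109847379 to 109849617 (minus strand). Below are the 150 bases before the RefSeq transcript start of each gene (RefSeq, GRCm38.p6), read 5′ to 3′ on the strand of the gene. Capitals mark matches on either strand to TTNNGNAA, a loose form of the site of the C/EBP factors that drive granulocyte maturation, to GAGGAA, a core of the site of PU.1, or to TATAAA, the TATA box.
S100a8, chr3:90668921-90669070, plus strand: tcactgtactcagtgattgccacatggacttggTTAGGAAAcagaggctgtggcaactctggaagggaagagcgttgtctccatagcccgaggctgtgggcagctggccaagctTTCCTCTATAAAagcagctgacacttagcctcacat
S100a9, chr3:90695722-90695871, minus strand: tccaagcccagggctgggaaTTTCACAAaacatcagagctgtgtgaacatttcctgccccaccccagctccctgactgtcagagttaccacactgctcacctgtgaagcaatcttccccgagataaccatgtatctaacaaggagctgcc
Ngp, chr9:110419658-110419807, plus strand: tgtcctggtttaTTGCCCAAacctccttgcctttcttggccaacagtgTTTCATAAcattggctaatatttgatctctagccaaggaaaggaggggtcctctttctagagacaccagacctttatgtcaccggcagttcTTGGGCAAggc
Camp, chr9:109849457-109849606, minus strand: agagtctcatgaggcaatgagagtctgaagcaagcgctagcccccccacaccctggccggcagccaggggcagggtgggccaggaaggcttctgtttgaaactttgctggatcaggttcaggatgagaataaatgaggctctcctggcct
The GENCODE gene models of S100a8, Ngp and Camp begin 93, 61 and 161 bases further upstream than these RefSeq starts, so the windows of S100a8 and Ngp reach into them and that of Camp lies within its model. S100a8 held 1 C/EBP match at bases 117 to 110 before the start and, side by side, a PU.1 match at bases 36 to 31 and a TATA match at bases 30 to 25, which print as 1 run of capitals. S100a9 held 1 C/EBP match, Ngp held 3, and the Camp window held none of these letters. Among all 8 genes, 4 had a C/EBP match in their 150 bases, 3 a PU.1 match and 1 a TATA match. Of the 32851 RefSeq promoter windows of this length, 22.7% held the C/EBP letters, 14.5% the PU.1 letters and 7.57% the TATA letters. The letters describe the windows and show no binding.

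The depth was uneven. Counts in genes ran from 9531270 to 63331530 a sample. Levels are given in CPM, counts scaled to the sample's effective library size, and 3 counts, used as the floor of detection, were worth between 0.0457 and 0.323 CPM. All 20 libraries had more counts of Y-linked genes than of Xist, although the labels name both sexes. Arg2 itself was at 9.19 ± 1.92 CPM (SD, n = 4) in wild type and 5.62 ± 1.47 in Arg2-/- lungs in room air, and at 9.30 ± 2.25 and 4.28 ± 0.912 in hypoxia, so reads remained in the knockout. The lung markers Scgb1a1 (at least 11800 CPM) and Ager (at least 1850 CPM) were high in every sample. Of the 16 samples, 5 carried markers of other organs above 10 CPM and above 5 times the median: Pvalb of muscle in wild type room air sample 1 (72.4 CPM), Nppa of atrium and Dntt of thymus in Arg2-/- room air samples 3 (187 and 12.7 CPM) and 4 (23.9 and 11.6 CPM), and Pnliprp1 of pancreas in Arg2-/- hypoxia samples 1 (143 CPM) and 2 (11.3 CPM). Their part in the results below was not tested. Calls that changed when these 5 samples were left out are given beside each result, as a setting chosen after seeing the data. Of the Arg2-/- samples it kept only room air 1 and 2 and hypoxia 3 and 4. Over all genes it called 6.48%, not 17%, with hypoxia in Arg2-/- lungs, and 12.7%, not 23%, between genotypes in hypoxia. Whether calls were lost through fewer samples or through the markers was not tested. The labels name no batch. They do not say outright that the numbered samples are separate animals, so the p-values refer to spread between samples, which may be technical.

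Levels of different genes are compared here per kilobase of exon. S100a9 had the highest mean over the 16 samples, 404 CPM per kb, followed by S100a8 at 210.0, Retnlg at 43.4, Csf3r and Ltf both at 15.7, Cxcr2 at 9.24, Ngp at 1.93 and Camp at 1.21. The calprotectin genes thus led, and the precursor genes Ngp and Camp were the lowest.

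S100a8 and S100a9 encode the subunits of calprotectin, the main calcium-binding protein of the neutrophil cytosol. S100a8 was at 97.1, 44.9, 174 and 70.9 CPM in wild type samples 1 to 4 in room air, and at 127, 316, 148 and 111 CPM in wild type samples in hypoxia. In Arg2-/- lungs it was at 100, 155, 163 and 411 CPM in room air and at 103, 88.1, 103 and 117 CPM in hypoxia. Sample 4 of Arg2-/- in room air and sample 2 of wild type in hypoxia were the highest, and the ranges of the groups overlapped in every comparison. In order of the means, S100a8 was at 207 ± 139 CPM in Arg2-/- room air, 176 ± 95 in wild type hypoxia, 103 ± 12 in Arg2-/- hypoxia and 96.7 ± 55.7 in wild type room air (SD, n = 4 each), and no pair of neighbours in this order differed beyond its spread.

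In wild type lungs S100a9 was at 147, 82.5, 250 and 120 CPM in room air and, in hypoxia, at 183, 663, 212 and 152 CPM. It was at 111, 213, 200 and 510 CPM in Arg2-/- room air and at 144, 120, 119 and 149 CPM in Arg2-/- hypoxia. The same 2 samples stood highest. All 4 Arg2-/- samples in hypoxia lay below all 4 wild type samples in hypoxia, by a margin of 149 against 152 CPM, with a log2 fold change of -1.19 ± 0.55 (SE) and an adjusted p of 0.135 in edgeR's quasi-likelihood test over all genes tested. The S100a9 to S100a8 ratio of counts stayed between 1.10 and 2.10 in the 16 samples.

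Csf3r, the receptor for the cytokine that drives neutrophil production and release, had the clearest difference. It was at 63.3, 38.2, 88.6 and 48.0 CPM in wild type room air, at 44.8, 92.9, 43.5 and 69.9 CPM in wild type hypoxia, at 53.4, 62.1, 63 and 122 CPM in Arg2-/- room air and at 38.6, 22.3, 30.3 and 24.3 CPM in Arg2-/- hypoxia. The 4 Arg2-/- samples in hypoxia lay below every sample of Arg2-/- in room air and of wild type in hypoxia. Csf3r fell by 1.38 ± 0.34 on the log2 scale with hypoxia in Arg2-/- lungs (2.6-fold lower, adjusted p = 0.0134 by edgeR), and was lower by a log2 fold change of -1.13 ± 0.34 in Arg2-/- than in wild type lungs in hypoxia (adjusted p = 0.0311 by edgeR). The first call held when each of the 8 samples compared was left out in turn (adjusted p 0.0146 to 0.0473). The other was lost without wild type hypoxia sample 2 or 4 or Arg2-/- hypoxia sample 2, 3 or 4 (adjusted p 0.0654 to 0.0951) and with the 5 samples that held organ markers left out (0.0676). Between wild type hypoxia and wild type room air its log2 fold change was 0.10 ± 0.34 (adjusted p = 0.933 by edgeR).

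Retnlg encodes resistin-like gamma, a secreted protein of mouse neutrophils. It was at 23.4, 27.2, 34.9 and 12.8 CPM in wild type room air, at 17.7, 40.3, 19.1 and 23 CPM in wild type hypoxia, at 24.1, 27.5, 30.4 and 68.1 CPM in Arg2-/- room air and at 18.1, 10.3, 16.8 and 18.2 CPM in Arg2-/- hypoxia. The Arg2-/- samples in hypoxia lay below all those in room air, and Retnlg fell by 1.24 ± 0.39 on the log2 scale (2.36-fold lower, adjusted p = 0.044 by edgeR). The call for Retnlg was lost when Arg2-/- room air sample 3 or 4 or any 1 of the Arg2-/- hypoxia samples was left out (adjusted p 0.0564 to 0.131). With the 5 organ-marker samples left out the log2 fold change was -0.56 (adjusted p = 0.545) for Retnlg and -1.09 (adjusted p = 0.189) for Csf3r in this comparison, by the same edgeR test over all genes.

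Cxcr2, the receptor by which neutrophils follow CXC chemokines, was at 22.1, 11.3, 43.6 and 15.3 CPM in wild type room air, at 23.7, 47.0, 24.1 and 30.8 CPM in wild type hypoxia, at 18.7, 32.5, 33.2 and 64.5 CPM in Arg2-/- room air and at 26.0, 15.2, 20.6 and 22 CPM in Arg2-/- hypoxia. Its groups overlapped in each comparison, with log2 fold changes of 0.50 ± 0.43 for hypoxia in wild type and -0.82 ± 0.43 for hypoxia in Arg2-/- lungs (adjusted p = 0.65 and 0.227 by edgeR). Within Arg2-/- hypoxia the mature genes were closest together: the highest sample was 1.25 to 1.77 times the lowest for the 5 genes. In the other groups this ratio ran from 1.98 for Cxcr2 in wild type hypoxia to 4.60 for S100a9 in Arg2-/- room air.

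**Figure D1:**
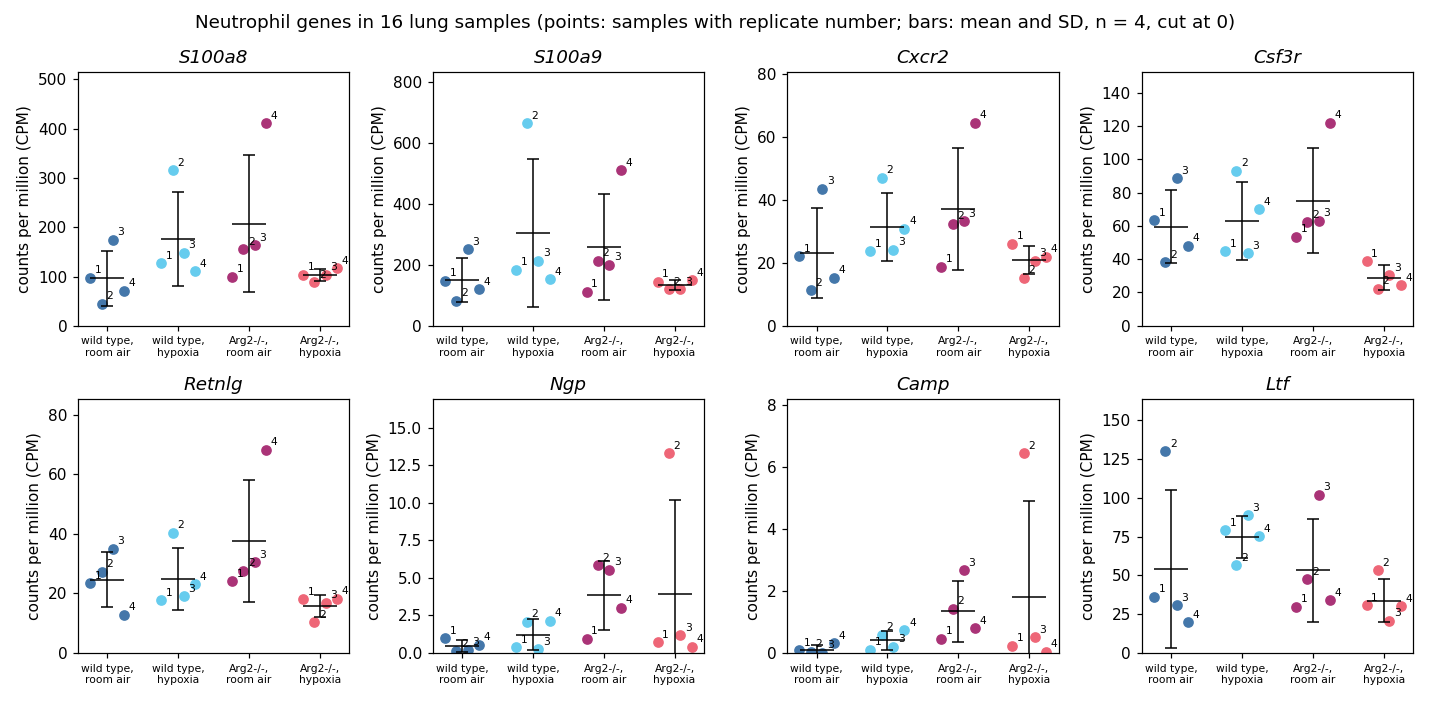
CPM (linear axes from 0) of the 8 genes in each of 16 lung samples by group, with the sample's number beside each point and the mean and SD (n = 4) as black bars, cut at 0. Csf3r in Arg2-/- hypoxia (22.3 to 38.6 CPM) lies below both Arg2-/- room air (53.4 to 122 CPM) and wild type hypoxia (43.5 to 92.9 CPM), and Ngp and Camp in Arg2-/- hypoxia rest on sample 2 (13.3 and 6.43 CPM).

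The granule genes Ngp, which encodes neutrophilic granule protein, and Camp, which encodes the cathelicidin peptide precursor, were scarce. Ngp was at 0.971, 0.124, 0.215 and 0.538 CPM in wild type room air, at 0.379, 2.07, 0.249 and 2.16 CPM in wild type hypoxia, at 0.938, 5.84, 5.55 and 3.01 CPM in Arg2-/- room air and at 0.724, 13.3, 1.19 and 0.425 CPM in Arg2-/- hypoxia. Sample 2 of Arg2-/- hypoxia stood above all others, and samples 2 and 3 of Arg2-/- room air came next. Ngp had 2 to 364 counts a sample, so the lowest samples were near the floor of 3 counts.

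Camp followed Ngp. It was at 0.0883, 0.031, 0 and 0.311 CPM in wild type room air, where sample 3 had no count and a floor of 0.323 CPM, and at 0.108, 0.591, 0.208 and 0.731 CPM in wild type hypoxia. It was at 0.461, 1.43, 2.67 and 0.801 CPM in Arg2-/- room air and at 0.23, 6.43, 0.508 and 0.0473 CPM in Arg2-/- hypoxia. In room air all 4 Arg2-/- samples lay above all 4 wild type samples for Camp, with a log2 fold change of 3.36 ± 1.31 and an adjusted p of 0.157 by edgeR. For Ngp the difference was 2.86 ± 1.16 (adjusted p = 0.179), with overlap between Arg2-/- sample 1 (0.938 CPM) and wild type sample 1 (0.971 CPM). Neither passed the threshold of 0.05.

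The log2 fold change with hypoxia in Arg2-/- lungs was 0.03 ± 1.00 for Ngp and 0.38 ± 1.01 for Camp, and both turned on sample 2 of Arg2-/- hypoxia. Without it, Ngp was at -2.36 ± 0.80 (adjusted p = 0.0653) and Camp at -2.57 ± 0.82 (adjusted p = 0.0461) by edgeR. That sample also had the highest level of Mpo, the myeloperoxidase of primary granules, at 1.59 CPM against 0.27 CPM or less elsewhere, and of Klf1, a factor of erythroid precursors, at 2.17 CPM against 0.282 CPM or less. Its Mki67, a proliferation gene, was at 129 CPM, the highest value of the 16 samples, and it was 1 of the 2 with the pancreatic marker Pnliprp1 (11.3 CPM). Whether other tissue or precursor cells had a part in this sample's Ngp and Camp was not tested.

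Ltf, which encodes the iron-binding protein lactoferrin, was at 36.4, 130, 30.9 and 19.8 CPM in wild type room air, at 79.1, 56.6, 88.7 and 75.2 CPM in wild type hypoxia, at 29.7, 47.4, 102 and 34 CPM in Arg2-/- room air and at 30.9, 53.3, 20.8 and 30 CPM in Arg2-/- hypoxia. In hypoxia the Arg2-/- samples lay below all wild type samples, with a log2 fold change of -1.15 ± 0.57 (adjusted p = 0.164 by edgeR). When only these 2 groups were fitted, the same difference was -1.14 ± 0.27 and passed (adjusted p = 0.0179 by edgeR). Ltf made up 73.0% to 99.9% of the summed CPM of the 3 granule genes, so that sum is in effect a measure of Ltf.

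The label of Ltf as a neutrophil precursor gene went against these data. Across the 16 samples its log2 CPM had a Pearson correlation of 0.02 with Ngp and 0.12 with Camp (Spearman 0.03 and 0.11), and between -0.06 and 0.14 with the 5 mature genes. Against secreted proteins of the airway lining it was 0.82 with Bpifb1 (Spearman 0.86), 0.77 with Scgb3a1 (0.80), 0.73 with Muc5b (0.65) and 0.65 with Bpifa1 (0.59). It was not high with every secreted protein, at -0.11 with Scgb1a1 (Spearman -0.05) and 0.13 with Lcn2 (0.19). The correlation with Bpifb1 stayed at 0.77 without the 2 samples farthest from the Ltf median and was 0.87 between deviations from the group means. Lactoferrin is also a known product of airway glands. Bpifb1 was at 126 CPM in wild type room air sample 2, which was highest for Ltf, and at 10.1 CPM in Arg2-/- hypoxia sample 3, the second lowest for Ltf. In hypoxia Bpifb1, Muc5b and Bpifa1 were lower in Arg2-/- than in wild type lungs by log2 fold changes of -1.71, -1.62 and -2.5 (adjusted p = 0.0297, 0.00472 and 0.0251 by edgeR), and the secretory list, which counts Ltf, had 5 of 11 tested genes lower and 0 higher, where 12.1% of all genes were lower. This count was 2 with the 5 organ-marker samples left out and 3 without wild type hypoxia sample 3 or Arg2-/- hypoxia sample 3 or 4. The part of airway tissue in the Ltf values was not tested.

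The other granule genes, by contrast, formed a tight pair. Ngp and Camp had a Pearson correlation of 0.93 (Spearman 0.93), 0.89 without the 2 samples farthest from the Ngp median and 0.90 between deviations from the group means. The 10 pairs among the 5 mature genes ran from 0.68 to 0.95, with a median of 0.78, and S100a8 with S100a9 was the closest (0.95, Spearman 0.92, 0.97 between deviations). S100a8 with Csf3r (0.68) and with Retnlg (0.71) rested in part on the extreme samples and came to 0.41 and 0.35 without the 2 farthest. Mature genes with Ngp or Camp gave -0.09 to 0.34. All these correlations are over 16 samples that share groups and libraries, and describe only this set.

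**Figure D2:**
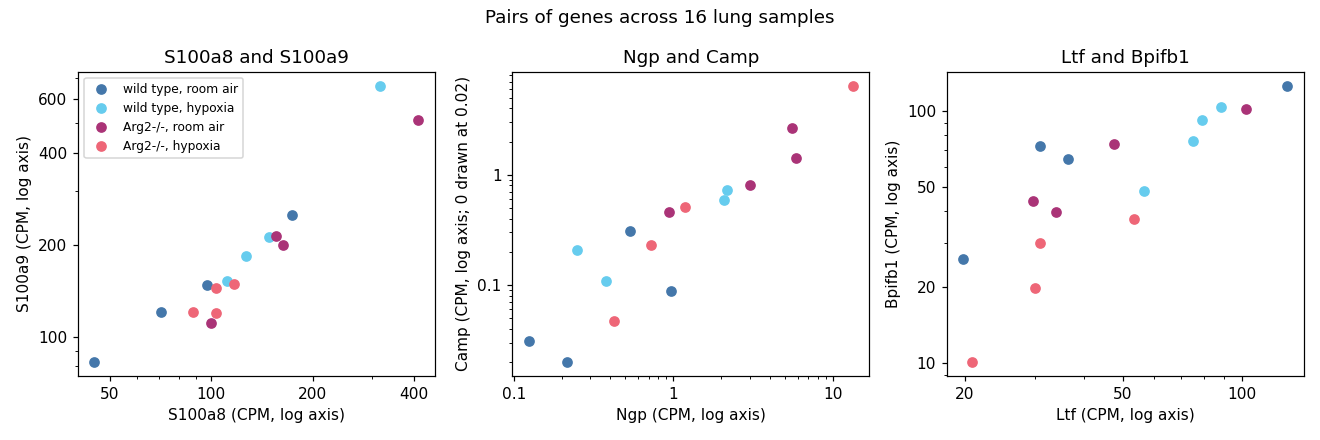
CPM of gene pairs in 16 lung samples, colored by group, on log axes. S100a8 with S100a9 and Ngp with Camp line up (Pearson 0.95 and 0.93 of log2 CPM), and Ltf lines up with the airway gene Bpifb1 (0.82).

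The summed CPM of the 5 mature genes was 204 to 591 in wild type room air, 387 to 1160 in wild type hypoxia, 308 to 1180 in Arg2-/- room air and 256 to 330 in Arg2-/- hypoxia. Divided by the 3 granule genes, the log2 ratio ran from 0.65 to 4.25, from 2.31 to 4.29, from 2.15 to 4.96 and from 1.81 to 3.68, so the groups overlapped. Since Ltf dominates the denominator, the log2 ratio was also taken to Ngp and Camp alone. It was 8.30 to 11.42 in wild type room air, 7.06 to 9.93 in wild type hypoxia, 5.90 to 8.27 in Arg2-/- room air and 3.70 to 9.45 in Arg2-/- hypoxia. The value of 11.42, of wild type room air sample 3, rests on 2 counts of Ngp and 0 of Camp, with an exact 95% Poisson interval for counting error of 9.57 to 14.47. All Arg2-/- samples in room air were below all wild type samples in room air on that ratio, by 8.27 against 8.30, where the intervals of those samples overlap (7.98 to 8.56 and 7.78 to 8.86), a choice of denominator made after the values were seen and not tested. In the 4 samples sequenced as A and B libraries, the larger value was 1.01 to 1.34 times the smaller for the mature genes and Ltf (median 1.06). Ngp and Camp are not in this range. In Arg2-/- room air samples 2 and 4 the ratio was 1.5 and 1.01 for Ngp and 1.12 and 1.69 for Camp. Wild type room air sample 3 had 2 Ngp counts in A and 0 in B.

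Counts of calls put the members beside the rest of the genome. With hypoxia in wild type lungs, 0 of 8 genes were called by edgeR at an adjusted p under 0.05, against 4.98% of all genes tested, and 0 had an unadjusted p under 0.05, although all 8 log2 fold changes were above 0 (median 0.69, all genes -0.01). With hypoxia in Arg2-/- lungs 2 of 8 were called, Csf3r and Retnlg, both lower, where 17% of all genes were called and 9.1% were called as lower. The median log2 fold change of the 5 mature genes was -1.01, against 0.00 over all genes. Between genotypes in room air 0 of 8 were called (0.0761% of all genes), with 3 at an unadjusted p under 0.05, namely S100a8, Ngp and Camp. Between genotypes in hypoxia 1 of 8 was called, Csf3r, as lower, where 23% of all genes were called and 12.1% as lower. Counts of 2 and 1 of 8 lie near the share of all genes and are not a result about these genes as a group. DESeq2 and limma voom also called 0, 2, 0 and 1 of the 8 in these comparisons.

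The difference between the 2 hypoxia effects (Arg2-/- minus wild type) was called for 0 of 8 genes, against 0.501% of all genes and 0.222% called as lower, by edgeR, and for 0 by DESeq2 and limma voom. All 8 estimates were below 0, with a median of -1.34, and 5 had an unadjusted p under 0.05, which were the 5 mature genes: S100a9 at -1.98 ± 0.77, S100a8 at -1.89 ± 0.70, Csf3r at -1.47 ± 0.48, Cxcr2 at -1.32 ± 0.61 and Retnlg at -1.29 ± 0.55. Their adjusted p was 0.18 to 0.353. The comparisons share samples, so these signs are not independent of those above. With the 5 organ-marker samples left out, 0 of 8 genes were called in each of the 5 comparisons. That fit had fewer samples and called 6.48% of all genes with hypoxia in Arg2-/- lungs and 12.7% between genotypes in hypoxia.

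**Figure D3:**
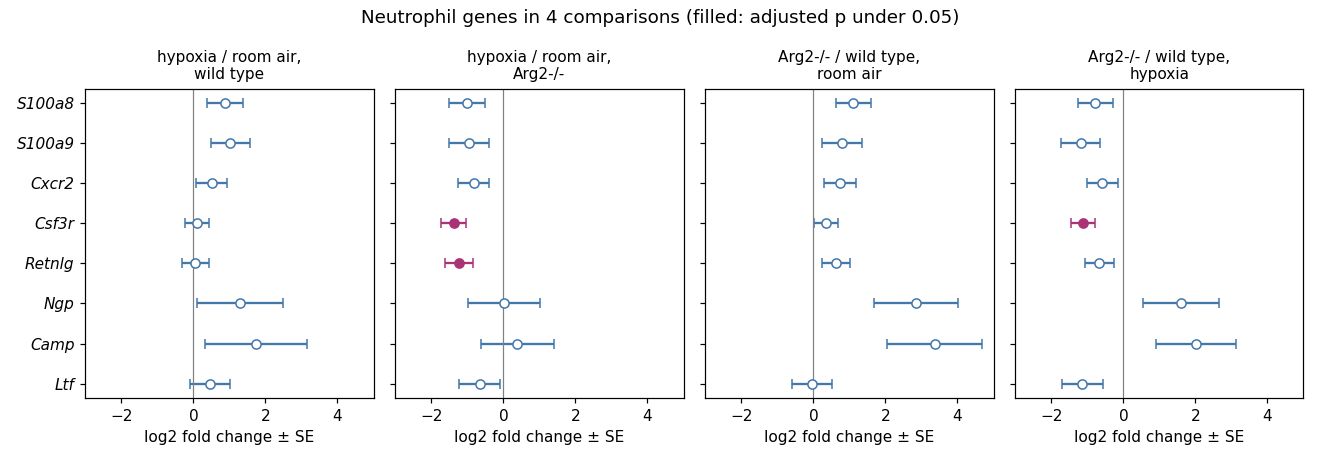
Log2 fold change ± SE of the 8 genes in 4 comparisons (edgeR, 4 samples a group), with filled points for an adjusted p under 0.05. Filled points are Csf3r (-1.38) and Retnlg (-1.24) for hypoxia in Arg2-/- lungs and Csf3r (-1.13) for Arg2-/- against wild type in hypoxia, and the widest bars belong to Ngp and Camp.

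Other genes of mature neutrophils split by direction. With hypoxia in Arg2-/- lungs, 5 of 24 tested genes fell and 2 rose (median log2 fold change -0.57, all genes 0.00), where 9.1% of all genes fell and 7.93% rose. Mmp9, the gelatinase of tertiary granules, was at 25.5 to 61 CPM in Arg2-/- room air and at 11 to 18.3 CPM in Arg2-/- hypoxia, groups that do not overlap. It fell by 1.52 ± 0.32 (adjusted p = 0.00449 by edgeR), and the receptor gene Trem3 fell by 1.10 ± 0.33 (adjusted p = 0.0248). The 2 that rose were 1100001G20Rik (now Wfdc21), by 0.77 ± 0.26, and the formyl peptide receptor gene Fpr1, by 0.47 ± 0.16 (adjusted p = 0.0484 and 0.0476). With the 5 organ-marker samples left out, 0 of these genes fell and 0 rose by edgeR. Leaving out 1 sample at a time gave 1 to 6 that fell, with 1 without Arg2-/- hypoxia sample 2 and 2 without Arg2-/- room air sample 2 or 4 or Arg2-/- hypoxia sample 3 or 4, and 0 to 3 that rose.

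In wild type lungs 4 of the 24 rose with hypoxia and 0 fell (median 0.19), where 2.67% of all genes rose. The count was 2 with the 5 organ-marker samples left out and 2 without wild type hypoxia sample 1, 2 or 3. Cxcr1, a chemokine receptor gene related to Cxcr2, was at 2.23, 0.434, 1.18 and 1.98 CPM in room air and at 4.38, 6.50, 7.39 and 5.15 CPM in hypoxia, without overlap, and rose by 1.96 ± 0.34 on the log2 scale (adjusted p = 0.00166 by edgeR). Steap4, a metalloreductase gene, Lrg1, which encodes a secreted leucine-rich glycoprotein, and 1100001G20Rik rose by 0.72, 0.90 and 1.02 (adjusted p = 0.0111, 0.0248 and 0.0302). Mmp9 of the same list was at 0.18 ± 0.31 (adjusted p = 0.849 by edgeR), and 0 of the 8 members were called here, beside 4.98% of all genes. Which lung cells carried the rises was not tested. Between genotypes in hypoxia 3 of 24 were lower in Arg2-/- lungs and 0 higher (Steap4, Mmp9 and the leukotriene receptor gene Ltb4r1), where 12.1% of all genes were lower. That count was 2 without the 5 organ-marker samples and 1 without wild type hypoxia sample 2 or Arg2-/- hypoxia sample 2, 3 or 4. In room air 0 were called by edgeR. Ly6g, the usual surface mark of mouse neutrophils, was not analysed here.

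Of 14 tested genes of secondary and tertiary granules, a list that includes Ngp, Camp and Ltf, 2 rose with hypoxia in both genotypes. Of all genes 2.67% rose in wild type and 7.93% in Arg2-/- lungs. The wild type count was 3 with the 5 organ-marker samples left out. Lcn2, the siderophore-binding lipocalin, ran from 87.9 to 109 CPM in wild type room air, from 156 to 184 CPM in wild type hypoxia, and rose by 0.77 ± 0.10 in wild type and 0.76 ± 0.09 in Arg2-/- lungs (adjusted p = 4.05e-05 and 2.26e-05 by edgeR). Chil3, a chitinase-like protein that alveolar macrophages also make, rose by 0.58 and 0.66. It was at 471 CPM or more in every sample. Both are also made outside neutrophils in lung. In Arg2-/- lungs 4 of the 14 fell with hypoxia, beside 9.1% of all genes: Pglyrp1 by 0.60, Cd177 by 0.85, Cybb by 0.26 and Adam8 by 0.62. Leaving out 1 sample at a time gave 2 to 4 that fell, with 2 without Arg2-/- hypoxia sample 3, and with the 5 organ-marker samples left out 0 did.

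Primary granule genes were at or near the floor. Elane, Ctsg, Ms4a3 and Fcnb had group means of at most 0.0552 CPM, and Mpo was 0.0110 CPM in wild type room air on average and 0.397 CPM in Arg2-/- hypoxia, from sample 2. Of the 7 tested genes of this list, 5 were called with hypoxia in Arg2-/- lungs, where 17% of all genes were called. None of these 5 encodes a granule protein. The granule gene tested, Prtn3, was at 0.241 CPM in Arg2-/- room air and 0.276 CPM in Arg2-/- hypoxia (adjusted p = 0.989 by edgeR). Cd34 and Mki67 rose by 1.11 and 0.90, and Gfi1, Kit and Tuba1b fell by 2.09, 0.42 and 0.35. With the 5 organ-marker samples left out 2 genes of the list rose and 2 fell. In wild type lungs Cd34 also rose, by 0.79, and Kit also fell, by 0.58 (adjusted p = 0.00076 and 0.00114 by edgeR). They were the only genes of the list called there, where 2.67% of all genes rose and 2.31% fell. Gfi1, a repressor needed for neutrophil maturation, had 0.938 CPM in Arg2-/- room air and 0.213 CPM in Arg2-/- hypoxia.

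The subunits of the phagocyte NADPH oxidase, the enzyme of the respiratory burst, were lower in Arg2-/- hypoxia for 4 of 5 listed genes against Arg2-/- room air (median log2 fold change -0.78). Of all genes 9.1% were lower in this comparison. The largest difference was that of Rac2, the small GTPase of the complex, which was at 43.6 to 60.6 CPM in room air and 18.2 to 24.5 CPM in hypoxia and fell by 1.17 ± 0.13 (adjusted p = 6.18e-06 by edgeR). The cytosolic subunits Ncf1 and Ncf4 fell by 0.82 and 0.78, and Cybb by 0.26. Cyba did not pass the test. In wild type lungs 0 of 5 were called, beside 4.98% of all genes. In hypoxia 4 of 5 were lower in Arg2-/- than in wild type lungs, beside 12.1% of all genes. With the 5 organ-marker samples left out 2 of 5 were lower in each of these Arg2-/- comparisons. Macrophages, monocytes and lymphocytes share several of these genes.

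Of 11 adhesion genes 6 fell and 2 rose with hypoxia in Arg2-/- lungs (median -0.67), beside 9.1% and 7.93% of all genes. When the organ-marker samples were left out 4 fell and 1 rose. The integrin chain gene Itgam fell by 1.22 ± 0.17, Itgal by 0.85 ± 0.14 and the endothelial selectin gene Sele by 2.65 ± 0.32 (adjusted p = 6.83e-05, 0.000426 and 1.32e-05 by edgeR). Vcam1, another endothelial adhesion gene, fell by 0.70 and Pecam1, carried by endothelium and leukocytes, rose by 0.53. Sele, Itgal and Vcam1 also fell in wild type lungs, by 1.54, 0.59 and 0.40, the 3 adhesion genes called there. Of all genes 2.31% fell with hypoxia in wild type lungs. The wild type count of 3 became 2 when the organ-marker samples were left out. It was 1 to 2 in the 8 fits that left out 1 sample, so it held in none of them.

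Csf3, the ligand of the Csf3r product, was below 0.11 CPM in each of the 16 samples, and Il17a was at 0 in all 16. Of 15 tested ligands, growth factors and related genes, 2 rose and 1 fell with hypoxia in Arg2-/- lungs, and 1 rose and 2 fell without the 5 organ-marker samples. Of all genes 7.93% rose and 9.1% fell in this comparison. Cxcl12, the chemokine that retains neutrophils in marrow, rose by 1.83 ± 0.13 in Arg2-/- and 2.16 ± 0.13 in wild type lungs (adjusted p = 5.07e-08 and 8.65e-09 by edgeR). Csf2 rose by 0.63 in Arg2-/- lungs, a call that was lost without the organ-marker samples (adjusted p = 0.254 by edgeR) and in 7 of the 8 fits that left out 1 sample. Among ligands of the Cxcr2 product, the platelet chemokine gene Ppbp had group means of 26.7 to 61.6 CPM and fell by 1.05 with hypoxia in Arg2-/- lungs (adjusted p = 0.000984 by edgeR). Cxcl1, Cxcl2, Cxcl3 and Cxcl5 had group means of 0.0929 to 1.69 CPM and were not called in any of the 5 comparisons. Cxcl15, another chemokine gene of this list, was far higher, with group means of 1370 to 1790 CPM, and was not called in any of them either. Among the receptors and partners of calprotectin, Tlr4 and Ager among them, 0 of 8 were called with hypoxia in either genotype. Cd36 alone was called between genotypes in hypoxia, higher by 0.41 (adjusted p = 0.0435 by edgeR), where 11% of all genes were higher. That call was lost without the organ-marker samples (0.103) and in 6 of the 8 fits that left out 1 sample.

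Among transcription factors of the lineage Gfi1 had the largest change, but at a low level. It ran from 0.0565 to 0.428 CPM in Arg2-/- hypoxia, where the floor of 3 counts was 0.0709 to 0.169 CPM. With hypoxia in Arg2-/- lungs Gfi1 fell by 2.09, 3 of 10 fell in all (Gfi1, Cebpb and Klf6) and 1 rose (Stat3, by 0.34), where 17% of all genes were called, and in wild type lungs 1 fell (Klf6, by 0.35), or 0 without the organ-marker samples. Cebpb, a C/EBP factor of emergency neutrophil production, fell by 0.52 ± 0.14 (adjusted p = 0.0153 by edgeR). Without the organ-marker samples 1 of the 10 fell, Gfi1 (adjusted p = 0.0204 by edgeR), and 0 rose, and 1 fell without Arg2-/- room air sample 1 or Arg2-/- hypoxia sample 2. Spi1, which encodes PU.1, was at 26.7 CPM in Arg2-/- room air and 21.8 CPM in Arg2-/- hypoxia on average and was lower in Arg2-/- than in wild type lungs in hypoxia by -0.34 ± 0.12 on the log2 scale (adjusted p = 0.0481), a call lost without the organ-marker samples (0.262) and in 6 of the 8 fits that left out 1 sample.

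**Figure D4:**
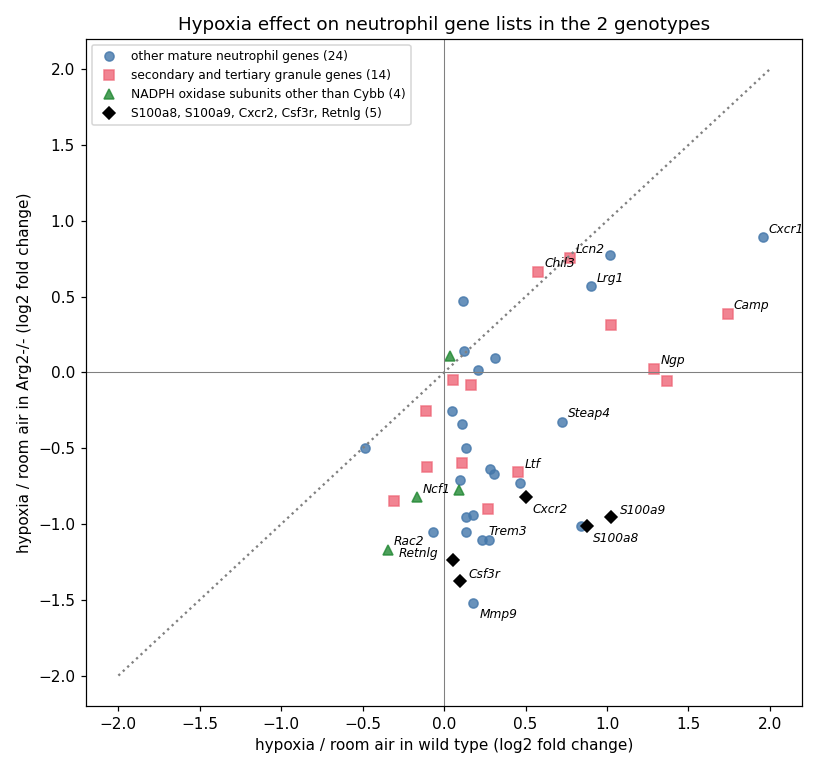
Log2 fold change with hypoxia in wild type (horizontal) against Arg2-/- lungs (vertical) for 24 other mature neutrophil genes, 14 secondary and tertiary granule genes, 4 NADPH oxidase subunits besides Cybb and the 5 mature genes, with the line of equal change dotted. The mature genes lie at 0.06 to 1.02 across and -1.38 to -0.82 down, and Lcn2 and Chil3 sit near the dotted line.

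Markers of other blood cells moved with the fall in Csf3r and Retnlg. With hypoxia in Arg2-/- lungs 10 of 10 B cell markers and 11 of 11 tested T and natural killer cell markers fell, with medians of -1.75 and -1.52. Of all genes 9.1% fell and 7.93% rose in this comparison. Summed CPM went from 97.8 to 155 in room air to 31.0 to 55.0 in hypoxia for the B cell list, and from 94.8 to 141 to 27.9 to 54.9 for the T and natural killer cell list. The common leukocyte gene Ptprc fell by 0.88 ± 0.07 (adjusted p = 2.5e-07 by edgeR), and 6 of 10 genes shared by leukocytes fell. Of 12 monocyte markers 5 fell and 1 rose, of 12 alveolar macrophage markers 2 fell and 3 rose, and of 12 tested markers of eosinophils, basophils and mast cells 8 fell. Of 10 platelet markers 3 fell, and of 6 tested erythroid markers 0 were called, while the globin genes Hba-a1, Hba-a2 and Hbb-bt were listed at 0 throughout. Without the 5 organ-marker samples, 10 B cell, 9 T and natural killer cell, 3 common leukocyte, 5 monocyte, 1 alveolar macrophage, 3 platelet and 5 eosinophil, basophil and mast cell markers fell. In the same fit 1 alveolar macrophage marker and 0 monocyte markers rose. The platelet count was 1 without Arg2-/- hypoxia sample 4 and 5 without sample 2. In wild type hypoxia 4 of 10 B cell markers and 5 of 11 T and natural killer cell markers also fell, where 2.31% of all genes fell and 0 of the 8 neutrophil genes were called. The B cell count there was 8 without wild type room air sample 3 and 2 without wild type room air sample 1 or 2 or wild type hypoxia sample 4. The part of a general change in leukocyte content was not tested.

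The genes most like the mature set, by Pearson correlation of log2 CPM with the mean standardized profile over 16 samples, were H2-Q10 (0.96, 1.71 to 13.5 CPM), a class Ib histocompatibility gene, Pram1 (0.92), an adaptor gene of myeloid cells, Trim30b (0.91), Nlrp12 (0.90), a gene of the NOD-like receptor family, and Mgam (0.90). Those most like the 3 granule genes were Tmbim6 (0.78), Plk1 (0.72), Fam109b (0.70), Clca1 (0.69) and Ank1 (0.67), at lower values than the mature set reached. The granule profile averages Ltf with Ngp and Camp, to which Ltf correlated at 0.02 and 0.12, so it joins genes that did not move together. Plk1 is a mitotic kinase gene, Clca1 a product of mucous cells and Ank1 the ankyrin gene of red cells.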

How the data were processed

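Whole-lung RNA was depleted of ribosomal RNA and sequenced from a directional library, per the labels' protocols. Per the submitters' processing notes the authors used Trim Galore, TopHat2 and HTSeq with mm10. No tool version, annotation or strand setting is given in the sources used here. For each of 20 libraries the deposited table holds raw counts per gene symbol; 5 lines that name no gene were left out. A and B libraries of the same number were summed. Counts of the 16 samples were fitted in R 4.3.3 with edgeR 4.0.16 (TMM, filterByExpr at min.count 10 and min.total.count 15, robust glmQLFit over all 4 groups, two-sided glmQLFTest), with Benjamini-Hochberg adjustment over 15766 genes and a threshold of 0.05. CPM use effective library sizes, and log2 CPM a prior count of 2. The fit was tested on simulated data. Alternatives were DESeq2 1.42.0, limma 3.58.1 (voom), other scalings, no filter, compared groups only, a replicate block, A libraries only, leaving out each sample and, chosen after seeing the data, leaving out the 5 samples that held markers of other organs. Named from each list were up to 5 called genes with the smallest p, and, chosen after their values were seen, genes that complete a small count. Also named were 5 genes most like each set (mean of at least 1 CPM). The members and lists were chosen with earlier results of these data known. Replicate numbers were not treated as pairs in the main fit. Some genes of the lists are not reported here and are left out of the lists' counts.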

Additional observations from a re-analysis of the deposited data

Results flagged for a closer look

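For 6 of the 32 sets of 4 samples (8 genes in 4 groups), 1 sample stood apart from the other 3 by more than Dixon's limit. Chance marks about 1 in 20 such sets if values follow a normal distribution, which was not tested for CPM. In all 6 the sample that stood apart was the highest, so the 2 rates cannot be set against each other. The 6 were S100a9 in wild type hypoxia sample 2 (663 CPM), Csf3r and Retnlg in Arg2-/- room air sample 4 (122 and 68.1 CPM), Ngp and Camp in Arg2-/- hypoxia sample 2 (13.3 and 6.43 CPM) and Ltf in wild type room air sample 2 (130 CPM). Genes of the same sample are not independent of each other.

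The hypoxia effect itself differed between genotypes (Arg2-/- minus wild type, log2, edgeR) for 5 genes of the lists, all with a lower value in Arg2-/- lungs, where 0.222% of all genes were called in that direction. From the neutrophil lists came Steap4 at -1.05 (adjusted p = 0.045) and the oxidase subunit gene Rac2 at -0.83 (0.0467). A place on these lists does not make a gene particular to neutrophils. The others were Ccr3 of eosinophils at -3.87 (0.00243), Ms4a2 of basophils and mast cells at -3.99 (0.0168) and Ptprc of all leukocytes at -0.55 (0.0206). With the 5 organ-marker samples left out none of these 5 calls held (adjusted p = 0.118, 0.171, 0.0656, 0.179 and 0.213, in the order above, by edgeR). Over the 16 fits that left out 1 sample, Ccr3 was called in 16, Ms4a2 in 15, Ptprc in 12, and Steap4 and Rac2 in 3 each.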

How the results depend on the processing

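Of 735 values of single members under the alternatives, 691 kept direction and side of the threshold, 18 lost it, 1 gained it and 25 turned. The number of the 8 genes called with hypoxia in Arg2-/- lungs, 2, became 1 without the filter on low counts and with the compared groups only, 0 with the 5 organ-marker samples left out (chosen after seeing the data) and 1 to 2 when leaving out each sample. The number called between genotypes in hypoxia, 1, became 2 with the compared groups only, 0 without the samples with organ markers and 0 to 1 when leaving out each sample. The other 3 numbers stayed at 0. The cause was not tested.

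Same-numbered samples had correlations of -0.33 to 0.46 between their deviations in the comparisons. Samples of different numbers were not compared in this way, so these values cannot say whether the numbers pair the samples. With a replicate block 1 gene was called with hypoxia in Arg2-/- lungs and 0 between genotypes in hypoxia, and the values that turned were Camp at -0.39 and Ngp at -0.64 for hypoxia in Arg2-/- lungs and Ltf at 0.13 for genotype in room air. Limma voom turned Camp (-1.59) and Ngp (-1.12) for hypoxia in Arg2-/- lungs, Camp for genotype in hypoxia (-0.049) and Ltf for genotype in room air (0.16). Without the samples with organ markers, hypoxia in Arg2-/- lungs was at -1.97 for Camp and -2.11 for Ngp, and genotype in hypoxia at -0.96 and -0.76. Leaving out each sample in turn, hypoxia in Arg2-/- lungs ran from -2.57 to 1.05 for Camp and from -2.36 to 0.42 for Ngp, genotype in hypoxia from -0.95 to 2.44 and from -0.78 to 2.00, hypoxia in wild type from -0.15 to 0.34 for Csf3r and from -0.27 to 0.25 for Retnlg, and genotype in room air from -0.57 to 0.88 for Ltf. Over all genes the most unstable count was that of genotype in room air: 12 by edgeR, 1120 by DESeq2, 974 by voom, and 2198 when sample 3 of wild type room air, the shallowest, was left out. The difference of hypoxia effects had 79 by edgeR and 484 by DESeq2. With the replicate block edgeR called 238 for genotype in room air and 157 for the difference of hypoxia effects. Depth limits Ngp and Camp most, with as few as 2 and 0 counts.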
